A study of Mus musculus with 9 samples.

Results

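The genes described here encode 10 subunits of the SRCAP, TIP60/p400 and INO80 chromatin remodelling complexes, namely Srcap, Ep400, Ino80, Kat5, Vps72, Yeats4, Znhit1, Brd8, Ruvbl1 and Ruvbl2. They were taken by name as subunits of these complexes, with no threshold on a measured value, out of 21911 protein-coding genes of GENCODE M21 on the 19 autosomes, X and Y. Accessibility at each gene was read from the ATAC-seq peaks that came within 1 kb of an annotated transcription start site (TSS) and from all peaks in the gene body with 10 kb on either side. These windows held 62 of the 128522 sites obtained when overlapping peaks of the 4 peak lists were merged.

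SRCAP and p400 are ATP-dependent motors that exchange the canonical histone H2A-H2B dimer of a nucleosome for an H2A.Z-H2B dimer, and INO80 is a related motor that slides nucleosomes and has been linked to the reverse exchange. All of them work as large complexes built on the AAA+ ATPases RUVBL1 and RUVBL2. VPS72 (YL1) binds the H2A.Z-H2B dimer during deposition, whereas ANP32E is a chaperone that takes H2A.Z out of nucleosomes. ATAC-seq inserts adapters into DNA that is free of nucleosomes, so the peaks give the accessibility of the genes that encode this machinery, not the amount or activity of the proteins.

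Primary mouse embryonic fibroblasts (MEFs) of passage below 8 were wild type (WT, 3 libraries) or Anp32e null (Anp32e-/-, 3 libraries). Anp32e-/- MEFs were also transfected with a non-targeting siRNA pool (NT siRNA, 1 library) or with a pool of 4 H2A.Z siRNAs (H2A.Z siRNA, 2 libraries), so both siRNA groups carry the Anp32e deletion. The first comparison asks how the genes differ without ANP32E, and the next how they differ in Anp32e-/- cells after H2A.Z knockdown. Each group has 1 peak list, which the labels give for all of its libraries, so no value has a replicate check and no test between groups was possible. The intervals given are exact 95% Poisson bounds on the fragments at a summit, and they cover counting error only.

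The lists held 84040 (WT), 82567 (Anp32e-/-), 89272 (NT siRNA) and 108409 (H2A.Z siRNA) peaks. Their genome-wide background, the fragments expected at any base, was 8.85, 5.12, 3.88 and 17.8, so the H2A.Z siRNA list was the deepest and the NT siRNA list the shallowest. All 10 fibroblast markers, among them Col1a2, Thy1 and Twist1, had a TSS peak in every list. The leukocyte genes Ptprc, Cd3e and Itgam had none, but TSS peaks were also found at endothelial and epithelial genes such as Kdr and Cdh1. Anp32e itself kept a TSS peak in all 4 lists (percentile rank 80.8, 84.8, 86.3 and 86.2), so a promoter peak does not check the genotype. Unless stated otherwise, values in a row follow the order WT, Anp32e-/-, NT siRNA and H2A.Z siRNA.

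The sequences below are the DNA under the promoter peaks of members at the ends of the ranking and of the motors Ep400 and Ino80. They show how unlike these promoters are in base composition. RefSeq promoters of build GRCm38.p6 (250 bases before to 50 after a start) matched 8 of the 10 genes, with 10 promoters between them; Vps72 and Brd8 had no entry. Only the part upstream of annotated exons is printed, which leaves none of the Srcap promoter, 5′ to 3′ along the gene, and capitals mark motifs on either strand.

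Ep400, chr5:110770718-110770948, minus strand, with 2 GC boxes read on the opposite strand: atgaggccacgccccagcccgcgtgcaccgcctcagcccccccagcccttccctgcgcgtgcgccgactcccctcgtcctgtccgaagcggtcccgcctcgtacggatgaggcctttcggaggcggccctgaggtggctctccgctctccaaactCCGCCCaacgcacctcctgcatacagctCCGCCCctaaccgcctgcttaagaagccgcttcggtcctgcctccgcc

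Ino80, chr2:119477688-119477937, minus strand, with 3 GC boxes and a CCAAT box: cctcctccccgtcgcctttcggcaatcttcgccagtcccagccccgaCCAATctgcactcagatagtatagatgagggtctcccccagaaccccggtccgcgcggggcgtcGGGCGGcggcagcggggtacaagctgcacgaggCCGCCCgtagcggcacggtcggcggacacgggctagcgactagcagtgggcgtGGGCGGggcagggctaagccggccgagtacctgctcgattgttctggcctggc

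Yeats4, chr10:117224508-117224588, minus strand, with an NRF1 palindrome whose first base lies at position -10: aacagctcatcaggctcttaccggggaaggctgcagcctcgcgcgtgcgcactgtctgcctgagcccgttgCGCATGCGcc

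Ruvbl1, chr6:88465159-88465408, plus strand, with 2 CCAAT boxes: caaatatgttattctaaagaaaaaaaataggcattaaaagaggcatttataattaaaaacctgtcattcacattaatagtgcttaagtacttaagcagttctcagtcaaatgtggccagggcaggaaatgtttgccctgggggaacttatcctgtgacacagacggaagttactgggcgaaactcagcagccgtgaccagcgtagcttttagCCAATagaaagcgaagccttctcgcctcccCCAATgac

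Kat5, chr19:5610238-5610344, minus strand, with a CCAAT box: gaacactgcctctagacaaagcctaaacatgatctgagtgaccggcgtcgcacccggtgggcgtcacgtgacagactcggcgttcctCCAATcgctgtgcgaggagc

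The G+C content of the 300-base promoters was 71% at Ep400 and 70% at Ino80, above the upper quartile (65%) of 20150 promoters of protein-coding genes, and 45.7% at Ruvbl1, below the lower quartile (49%). The GC box GGGCGG, bound by SP1, was present in 7 of the 10 promoters and in 47.8% of all promoters. CCAAT, the NF-Y box, was found in 5 of 10 (37.8% of all), CCGGAAG, an ETS site, in 2 of 10 (11.9%) and ATGGCGG, a YY1 site, in 2 of 10 (5.38%). The NRF1 palindrome CGCATGCG was found only at Yeats4 (2.62% of all promoters), and the cyclic AMP response element TGACGTCA at none (2.31%). Both strands were searched, no motif contains another, and a match describes letters and not binding.

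All 10 genes had a TSS peak in all 4 lists. Among all protein-coding genes, 67.1% had one in WT, 66.7% in Anp32e-/-, 66.8% in NT siRNA, 68.4% in H2A.Z siRNA and 63.7% in all 4. Peaks were compared by the percentile rank of their fold enrichment within their own list, because the lists differ in depth. The fold enrichment is the fragment pileup at the summit over a local background, with 1 added to both. The median rank of the 10 genes was 83.1, 83.9, 78.9 and 85.4, beside 81.7, 80.0, 79.5 and 81.5 for all protein-coding genes with a TSS peak. The genes themselves were spread widely, from 51.9 at Kat5 to 96.7 at Yeats4 in WT.

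**Figure D1:**
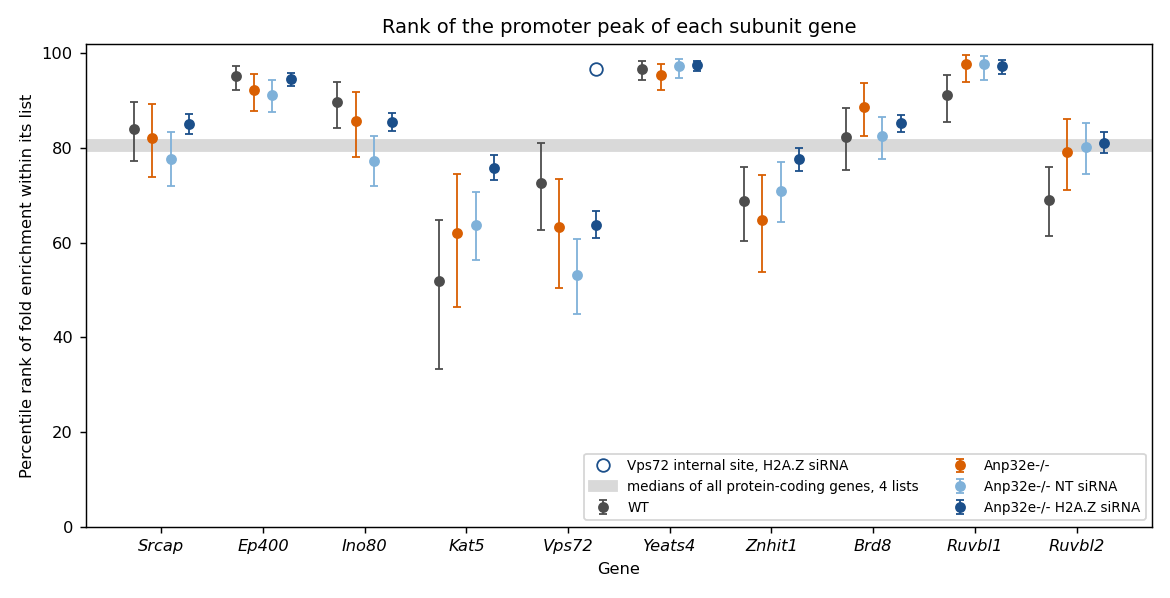
Percentile rank of the fold enrichment of the promoter peak (y axis) for each gene (x axis) in the 4 lists. Points are 1 peak each, bars are exact 95% counting intervals, the grey band spans the medians of all protein-coding genes in the 4 lists, and the open circle is the internal Vps72 site. Ep400, Yeats4 and Ruvbl1 sit above 91 in every list, Kat5 is lowest in WT at 51.9, and the Anp32e-/- bars overlap the WT bars at all 10 genes.

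Srcap (chr7:127511983-127561219, plus strand), the catalytic subunit of the complex that bears its name, had a TSS peak at ranks 83.9 (interval 77.3 to 89.8), 82.1 (73.9 to 89.3), 77.6 (71.9 to 83.3) and 85.1 (83.0 to 87.2). The summit lay at the shared start of Srcap and the divergent non-coding gene 1700008J07Rik, 27 bp upstream to 86 bp downstream of the annotated Srcap start. NT siRNA was lowest and H2A.Z siRNA highest, and every interval overlapped the other 3. This peak was the widest of the set in WT and H2A.Z siRNA, at 1881, 1481, 1450 and 2226 bp. In NT siRNA a separate peak of 231 bp lay downstream of it, where a single peak ran on in WT and H2A.Z siRNA.

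Ep400 (chr5:110664373-110770717, minus strand), which encodes p400, had the highest promoter of the 3 motors in every list, at ranks 95.2 (92.4 to 97.4), 92.3 (87.9 to 95.7), 91.2 (87.6 to 94.3) and 94.6 (93.2 to 95.8). The pileup at its summit was 352, 311, 634 and 2631 fragments. Its summit stayed within 1 bp in all 4 lists, 13 or 14 bp upstream of the start, between the GC boxes printed above and the first exon. The peak was 1198, 1133, 1210 and 1303 bp wide, the smallest relative spread in width among the 3 motors.

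Ino80 (chr2:119373042-119477687, minus strand), the motor of the INO80 complex, had its strongest TSS peak at ranks 89.7 (84.2 to 94.0), 85.7 (78.1 to 91.9), 77.3 (72.0 to 82.5) and 85.6 (83.5 to 87.5). Its promoter was the clearest case of a change in shape. In WT and Anp32e-/- the region was called as 2 peaks, an upstream peak of 919 and 846 bp and a downstream peak of 514 and 490 bp that started 428 bp inside the gene. A single peak of 1745 bp (NT siRNA) or 1841 bp (H2A.Z siRNA) covered both. The downstream peak ranked far lower than the upstream peak, at 22.4 in WT and 28.8 in Anp32e-/-. The summits lay 249 to 408 bp upstream of the annotated start, the farthest upstream of the 3 motors.

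**Figure D2:**
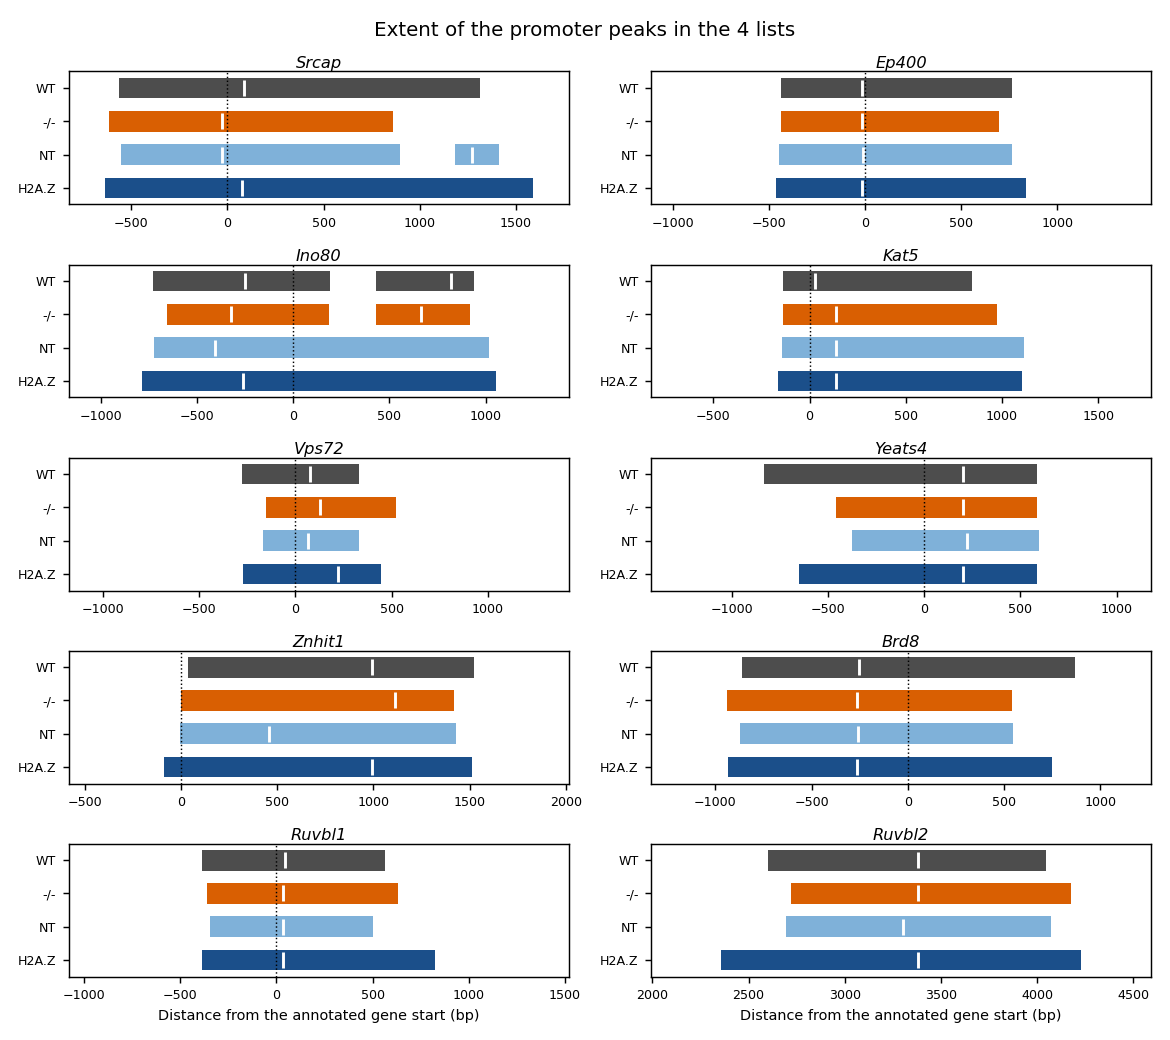
Extent of the peaks at the promoter site of each gene, in bp from the annotated gene start (dotted line), along the direction of transcription. Bars are peaks, white ticks are summits, and rows are the WT, Anp32e-/- (-/-), NT siRNA (NT) and H2A.Z siRNA (H2A.Z) lists. Ino80 has 2 peaks in the upper rows and 1 in the lower rows, and the Ruvbl2 peak lies 2359 to 4228 bp inside the annotated gene.

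Kat5 (chr19:5603014-5610237, minus strand) encodes TIP60, the lysine acetyltransferase of the p400 complex. It had the lowest promoter rank of the set in WT (51.9, interval 33.4 to 64.9) and Anp32e-/- (62.2, 46.5 to 74.6), followed by 63.7 (56.3 to 70.7) in NT siRNA and 75.9 (73.2 to 78.6) in H2A.Z siRNA. The pileup behind these ranks was 60, 59, 217 and 1011 fragments, so the ranks of the untransfected lists were the least precise of the set. The H2A.Z siRNA rank lay above the other 3, and its interval did not overlap the WT or NT siRNA interval. Only 138 to 162 bp of the peak lay upstream of the annotated start, and the summit fell within an untranslated exon.

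Vps72 (chr3:95111022-95123051, plus strand), the H2A.Z-binding subunit of SRCAP and p400, had its 5′ promoter peak at ranks 72.7 (62.7 to 81.2), 63.3 (50.4 to 73.5), 53.1 (45.0 to 60.9) and 63.8 (61.0 to 66.8). It was the narrowest promoter of the set, at 610, 678, 502 and 717 bp. A stronger site lay inside the gene, with its highest summit 6929 bp from the start, at ranks 91.0, 99.1, 99.6 and 96.8 with 119, 146, 392 and 1309 fragments. In H2A.Z siRNA alone that site reached to within 1 kb of a non-coding Vps72 TSS, so by the rule of the strongest TSS peak the H2A.Z siRNA rank of Vps72 was 96.8 and not 63.8. The internal site outranked the 5′ promoter in every list. It overlaps an exon of a non-coding Vps72 transcript. Because it is the highest-ranked site of any of the 10 genes in Anp32e-/- and NT siRNA, the 201 bases around its summit are printed, on the plus strand, with AP-1 (TGANTCA) and CCAAT matches in capitals.

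Vps72 internal site, chr3:95117851-95118051: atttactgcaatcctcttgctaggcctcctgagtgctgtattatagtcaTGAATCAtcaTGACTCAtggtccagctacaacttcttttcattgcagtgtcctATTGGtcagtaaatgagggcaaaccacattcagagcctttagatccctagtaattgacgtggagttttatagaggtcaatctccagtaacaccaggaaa

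Yeats4 (chr10:117215221-117224507, minus strand), which encodes GAS41, a reader of acylated histones shared by SRCAP and p400, had the highest WT rank of the set: 96.7 (94.4 to 98.3), then 95.5 (92.3 to 97.8), 97.3 (94.7 to 98.9) and 97.5 (96.4 to 98.4). The 4 intervals overlap, and the summit lay 200 to 225 bp inside the gene in a coding exon. A weaker site at an internal non-coding TSS, 7459 to 7476 bp from the start, ranked 33.6 (6.61 to 54.5), 59.7 (42.3 to 73.4), 77.8 (65.6 to 89.0) and 72.6 (67.4 to 77.7). It rested on 40 fragments in WT and 50 in Anp32e-/-, and the WT interval did not overlap either siRNA interval.

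Znhit1 (chr5:136982164-136988021, minus strand), a subunit of SRCAP with a zinc-finger HIT domain, ranked 68.8 (60.4 to 76.1), 64.9 (53.9 to 74.4), 70.9 (64.5 to 77.2) and 77.7 (75.3 to 80.1). Its peak, 1487, 1417, 1435 and 1600 bp wide, lay over the first exons that Znhit1 shares with the divergent gene Plod3, a lysyl hydroxylase of collagen. The summit was 1114 bp inside the annotated gene in Anp32e-/-, 994 bp in WT and H2A.Z siRNA and 459 bp in NT siRNA.

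Brd8 (chr18:34598615-34624601, minus strand), the bromodomain subunit of the p400 complex, ranked 82.3 (75.4 to 88.4), 88.7 (82.6 to 93.7), 82.5 (77.8 to 86.6) and 85.3 (83.4 to 87.0). The summit lay 256 to 263 bp upstream of Brd8, in an untranslated exon of the divergent gene Kif20a, a mitotic kinesin, so the peak belongs to both genes. Its pileup was 144 fragments in WT and 199 in Anp32e-/-, although the Anp32e-/- list had the lower background.

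Ruvbl1 (chr6:88465409-88497572, plus strand) ranked 91.1 (85.5 to 95.5), 97.9 (93.9 to 99.6), 97.7 (94.4 to 99.4) and 97.4 (95.7 to 98.6). WT was the lowest of the 4, and its interval overlapped the Anp32e-/- and NT siRNA intervals but not the H2A.Z siRNA interval. Its local background was low, 1.51 to 4.00 times the genome-wide background, where Ep400 had 3.25 to 10.1 times; the part of this in the ranks was not tested.

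Ruvbl2 (chr7:45421760-45438096, minus strand), the partner ATPase, ranked 69.1 (61.5 to 76.0), 79.2 (71.2 to 86.1), 80.2 (74.5 to 85.4) and 81.2 (79.1 to 83.4). WT was again the lowest. The peak was not at the most upstream annotated start but at a cluster of starts inside the gene, with the summit at 3304 to 3383 bp, beside the divergent gene Gys1, the muscle glycogen synthase. The WT interval overlapped those of Anp32e-/- and NT siRNA but not that of H2A.Z siRNA.

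Between Anp32e-/- and WT, the ranks of 4 genes were higher in Anp32e-/- (Kat5, Ruvbl2, Ruvbl1 and Brd8) and those of the other 6 lower, beside 37.6% higher among 14298 protein-coding genes with a TSS peak in both lists. The differences were 10.3 points at Kat5, 10.1 at Ruvbl2, 6.72 at Ruvbl1 and 6.36 at Brd8. They were -9.46 at Vps72, -4.03 at Ino80, -3.85 at Znhit1, -2.91 at Ep400, -1.88 at Srcap and -1.24 at Yeats4. The median was -1.56 points, against -1.36 for all genes. Kat5 and Ruvbl2 were the 2 genes higher by 10 points or more (6.53% of all genes), and 0 were lower by as much (11.1%). Ranked by -log10 p instead of the fold, Kat5 differed by 7.22 points and Ruvbl2 by 4.14. The counting intervals of the lists overlapped at all 10 genes, and they did not overlap at 3.39% of all genes. At 3 of the 10, Ruvbl1, Ruvbl2 and Brd8, all higher in Anp32e-/-, each rank nevertheless lay outside the interval of the other list, as at 5.27% of all genes in that direction.

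Peak height, the pileup over the genome-wide background, gives the same comparison without the local background. The median height of all protein-coding promoters was 16.5 in WT and 25.8 in Anp32e-/-, with a median log2 ratio per gene of 0.65. Without centring, all 10 heights were greater in Anp32e-/-, with log2 ratios from 0.40 at Znhit1 to 1.26 at Brd8. Changes are given below relative to the shift of all genes. Brd8 stood out, with heights of 16.3 (13.7 to 19.2) in WT and 38.9 (33.7 to 44.7) in Anp32e-/- and a centred log2 ratio of 0.61 (interval 0.29 to 0.93). It was the only gene of the 10 past 0.5, which 3.73% of all genes passed upward and 8.2% downward. Ruvbl1 followed at 0.33 (-0.00 to 0.66) and Yeats4 at 0.15 (-0.06 to 0.36). Znhit1 was lowest at -0.25 (-0.63 to 0.13). The 3 motors were near 0, at 0.01 (Srcap), -0.03 (Ep400) and -0.09 (Ino80). The median of the 10 genes was 0.0385 by height, against the negative median by rank. By this measure Kat5 (0.12) and Ruvbl2 (0.07), the genes with the largest rank differences, were not set apart, and the intervals of all genes but Brd8 included 0.

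**Figure D3:**
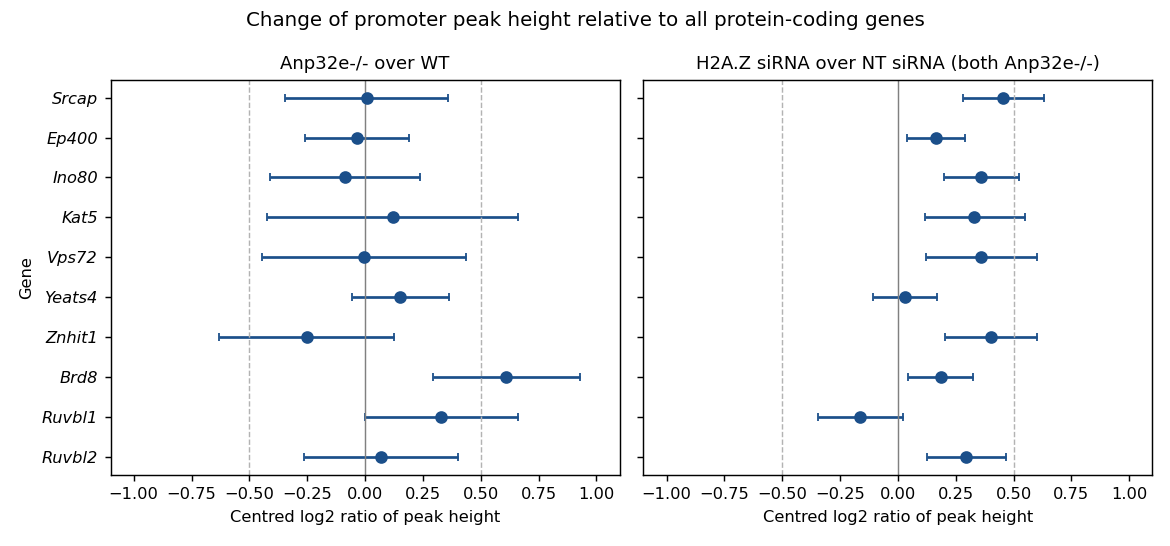
Centred log2 ratio of promoter peak height (x axis) for each gene (y axis), Anp32e-/- over WT on the left and H2A.Z siRNA over NT siRNA on the right. Points are 1 list against 1 list, bars are exact 95% counting intervals, 0 is the median of all protein-coding genes, dashed lines mark 0.5 in either direction, and Vps72 is shown at its 5′ promoter. On the left Brd8 alone lies past 0.5 at 0.61, and on the right 9 of the 10 points lie above 0 and none is past 0.5.

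The peaks of 4 genes were wider in Anp32e-/- than in WT, Kat5 by 129 bp, Vps72 by 68 bp, Ruvbl1 by 46 bp and Ruvbl2 by 10 bp, and those of the other 6 were narrower. Among all protein-coding genes 40.3% were wider. The largest differences were at Srcap (-400 bp), Yeats4 (-374 bp) and Brd8 (-252 bp). At Brd8 the peak was thus narrower in the list in which its height was greater.

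Between H2A.Z siRNA and NT siRNA, 9 of the 10 ranks were higher in H2A.Z siRNA, beside 67% of 14540 protein-coding genes. The median difference was 5.14 points, against 2.09 for all genes. These values moved with the length of the lists. With the same number of peaks in every list, 6 of the 10 ranks were higher, beside 41.8% of all genes, and the median was 2.35 points, against -0.96. Among the 20000 strongest peaks, where 5 of the genes were present in both lists, it was -1.48, against -1.72. Kat5 differed by 12.2 points, Ino80 by 8.25, Srcap by 7.52, Znhit1 by 6.89, Ep400 by 3.39, Brd8 by 2.79, Ruvbl2 by 1.02 and Yeats4 by 0.20. Ruvbl1 was the exception at -0.33. Vps72 differed by 43.7 points when the strongest TSS peak was taken in each list and by 10.7 at the 5′ promoter itself. Kat5 and Vps72 were the 2 genes higher by 10 points or more (14.1% of all genes), and 0 were lower by as much (2.57%). Kat5 differed by 7.58 points with the same number of peaks in every list and by 6.50 when ranked by -log10 p. The counting intervals did not overlap at 3 genes, Ino80, Kat5 and Vps72, all higher in H2A.Z siRNA, beside 12.7% of all genes in that direction, and they overlapped at the other 7.

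In height, the genome-wide median log2 ratio of H2A.Z siRNA over NT siRNA was -0.31. Relative to it, Srcap was at 0.45 (0.28 to 0.63), Znhit1 at 0.40 (0.21 to 0.60), Ino80 at 0.36 (0.20 to 0.52), Vps72 at 0.36 (0.12 to 0.60) at its 5′ promoter, Kat5 at 0.33 (0.12 to 0.55) and Ruvbl2 at 0.30 (0.13 to 0.47). Brd8 at 0.18 (0.05 to 0.32), Ep400 at 0.16 (0.04 to 0.29) and Yeats4 at 0.03 (-0.11 to 0.17) were smaller, and Ruvbl1 was at -0.16 (-0.34 to 0.02). The median of the 10 genes was 0.31. The intervals, which cover counting error only, included 0 at Yeats4 and Ruvbl1 and at no other of the 10 genes. By the strongest TSS peak, Vps72 was at 1.00 and the only gene past 0.5, and at its 5′ promoter none was. Among all genes 4.53% passed 0.5 upward and 5.13% downward. Without centring, 5 of the 10 heights were greater in H2A.Z siRNA and 5 smaller. The log2 ratio ran from -0.47 at Ruvbl1 to 0.14 at Srcap, with Vps72 at its 5′ promoter, and Vps72 stood at 0.69 by the strongest TSS peak.

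All 10 promoters were wider in H2A.Z siRNA than in NT siRNA, as were 94.4% of all protein-coding promoters. The median difference was 266.5 bp for the 10 genes and 151 bp for all. By the strongest TSS peak, as in these medians, the largest were at Srcap (776 bp), Vps72 (496 bp) and Ruvbl2 (488 bp), and Kat5 differed by 9 bp. At its 5′ promoter Vps72 differed by 215 bp, and with that value the median of the 10 genes was 238.5 bp. The H2A.Z siRNA list had 4.59 times the background of the NT siRNA list. The part of depth in the widths was not tested.

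With the promoters included, the windows of the 10 genes held 29 sites in WT, 29 in Anp32e-/-, 44 (NT siRNA) and 62 (H2A.Z siRNA). The 12 sites at the genes' own TSSs were called in every list. They include the internal Vps72 site, whose peak came within 1 kb of a TSS in H2A.Z siRNA alone. Of all 62 sites, 28 were called in every list, 45.2% beside 47.1% of 91193 sites in the windows of all protein-coding genes. Another 15 were called in both siRNA lists and in neither untransfected list, 24.2% beside 9.27%. A further 17 were called in H2A.Z siRNA alone, 27.4% beside 15.2%. No site was called in WT alone or in Anp32e-/- alone, beside 5.80% and 2.60% of the sites in all windows. The remaining 2 were a site downstream of Srcap missing only from Anp32e-/- and a site downstream of Yeats4 called in Anp32e-/- and H2A.Z siRNA. The siRNA cells differ from the others in transfection and in being a separate set of libraries, and these cannot be told apart. Marker genes of other cell types differed between the same lists. The 3 epithelial markers Epcam, Cdh1 and Krt8 had TSS peaks in every list, at ranks of 21.5 to 54.2 in WT, 23.7 to 38.5 in Anp32e-/-, 50.8 to 68.2 in NT siRNA and 58.1 to 68.7 in H2A.Z siRNA. Of the 3 endothelial markers, Pecam1 had no TSS peak in Anp32e-/- and ranked 38.9, 47.6 and 77.2 in the other lists, Cdh5 ranked 27.3, 12.6, 26.7 and 54.9, and Kdr ranked 88.1, 87.0, 90.2 and 86.8. The median rank of the 10 fibroblast markers was 60.8, 53.8, 46.0 and 53.3. The part of these differences in the siRNA sites was not tested. With pileup and background scaled to the depth of the NT siRNA list, 52 sites were left. Of these, 11 were in both siRNA lists alone (21.2%), 7 in H2A.Z siRNA alone (13.5%) and 4 in NT siRNA alone (7.69%), beside 9.79%, 9.31% and 3.99% of the 116512 sites of the whole lists at that depth.

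Ino80 had more of these extra sites than any other of the 10 genes, 4 in both siRNA lists alone and 5 in H2A.Z siRNA alone, and Brd8 had 3 and 4. Ep400 had 3 and 2, and Kat5 and Yeats4 had 0 of either kind. The windows differ in length, from 126 kb at Ep400 and 125 kb at Ino80 to 27.2 kb at Kat5 and 25.9 kb at Znhit1. The Brd8 window was 46.0 kb and the Yeats4 window 29.3 kb. Znhit1, with the shortest window, had 0 and 3 of these sites. The counts were not divided by window length, so they do not rank the genes by density. The sites of H2A.Z siRNA alone were weak, with a median rank of 7.42 and a highest rank of 35.1. Those of both siRNA lists reached 64.1 with the NT siRNA and 67.6 with the H2A.Z siRNA. The strongest were intronic: Ep400 chr5:110733316-110733877 (64.1 and 67.6), Ino80 chr2:119413633-119414597 (52.3 and 67.5) and Ino80 chr2:119436957-119437454 (49.3 and 66.5).

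**Figure D4:**
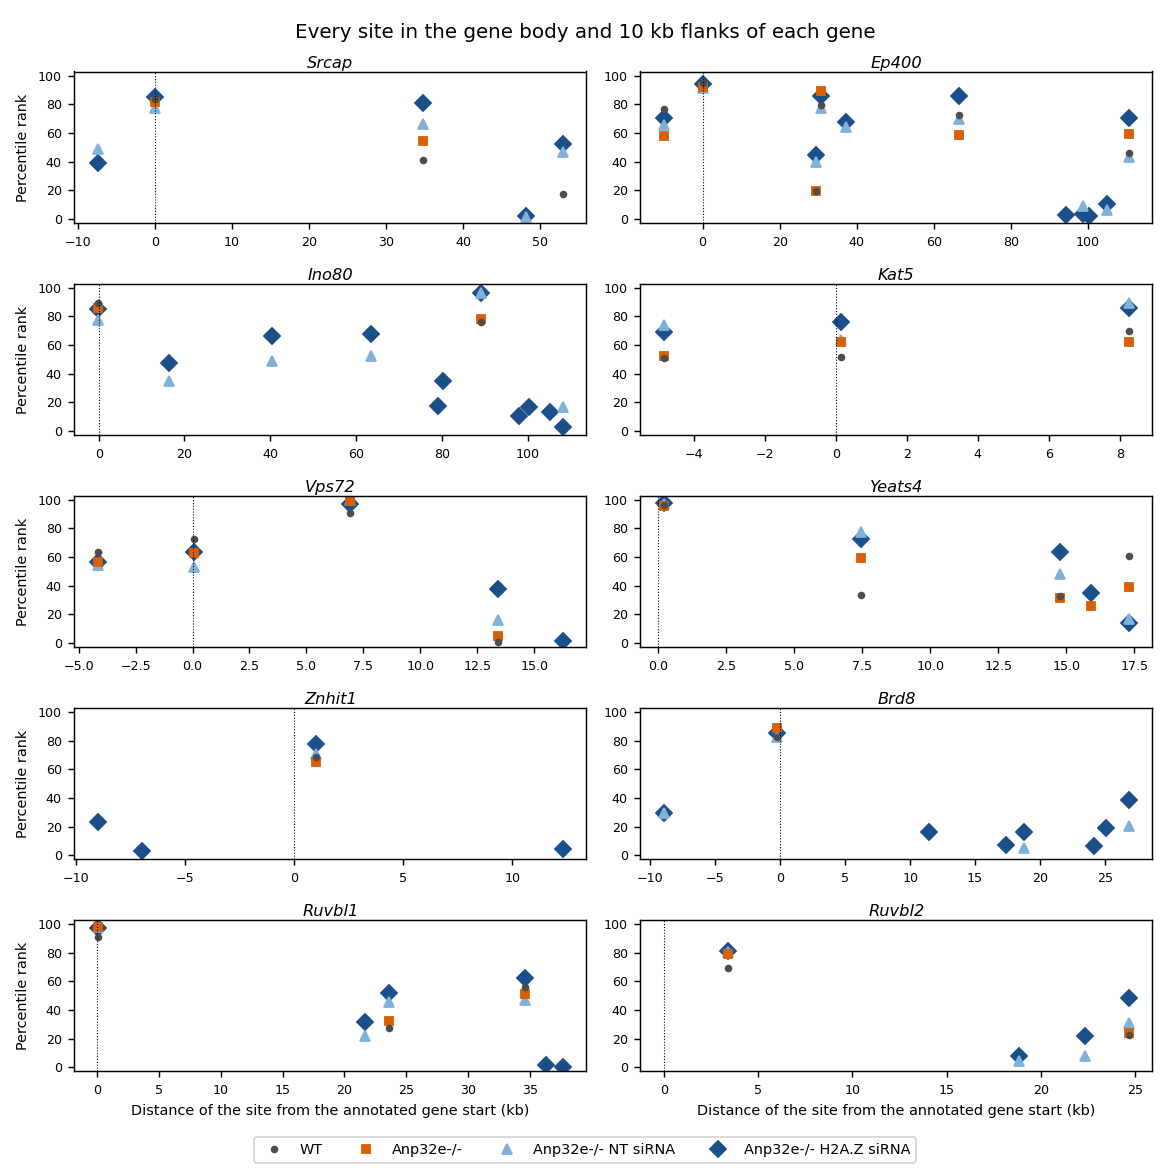
Percentile rank (y axis) of every merged site in the gene body and 10 kb flanks, by its distance from the annotated gene start in kb (x axis), with 1 panel per gene and 1 marker per list in which the site was called. The dotted line is the annotated start. Ino80 shows 1 distal site with markers of all 4 lists, at ranks of 75.9 to 96.6, and a run of sites with siRNA markers only.

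Among the 28 shared sites, 16 lay away from the gene's own TSSs. The strongest in the siRNA lists was an intronic Ino80 site, chr2:119388158-119388939, at ranks 75.9 (64.4 to 85.4), 78.2 (64.7 to 89.5), 96.4 (89.7 to 99.5) and 96.6 (93.8 to 98.5). Both siRNA intervals lay above those of WT and Anp32e-/-. In both siRNA lists this intronic site outranked the Ino80 promoter, which it did not in WT or Anp32e-/-, and its sequence is printed for that reason, on the plus strand, with a CCAAT match in capitals.

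Ino80 intronic site, chr2:119388384-119388584: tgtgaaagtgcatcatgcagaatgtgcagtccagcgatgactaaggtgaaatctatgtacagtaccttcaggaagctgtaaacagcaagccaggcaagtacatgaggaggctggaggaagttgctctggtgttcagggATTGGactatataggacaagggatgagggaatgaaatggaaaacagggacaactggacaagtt

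An intronic Ep400 site, chr5:110739521-110740201, ranked 80.0, 89.5, 77.5 and 85.7, the highest of the 16 in WT and Anp32e-/-. Another, chr5:110703744-110704572, ranked 72.7, 58.9, 69.7 and 85.9. An intronic Srcap site, chr7:127545904-127547226, ranked 41.0, 54.2, 66.1 and 80.7. A site at the neighbouring start of Pus1, a pseudouridine synthase, 10096 bp upstream of Ep400, ranked 76.7, 58.1, 65.7 and 70.4. The site downstream of Kat5 that lies at the start of Rnaseh2c, a subunit of ribonuclease H2, ranked 70.0, 61.9, 89.1 and 86.1, above the Kat5 promoter in WT and in both siRNA lists. Vps72 had sites at the starts of Pip5k1a (63.9, 56.7, 54.3 and 56.5) and Tmod4 (0.69, 4.97, 16.1 and 37.9).

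From WT to Anp32e-/-, 9 of the 16 sites ranked higher, with a median difference of 0.73 points, beside 47.6% and -0.44 points for all 59011 sites called in every list. From NT siRNA to H2A.Z siRNA, 13 of 16 ranked higher, with a median of 7.16 points, beside 71% and 4.37 points. Differences past 10 points upward in H2A.Z siRNA were found at 7 of the 16 sites and downward at 0, beside 30.3% and 4.89% of all shared sites. The largest were the site at the start of Gm42595, downstream of Ep400 (27.2 points), and the Tmod4 site (21.8 points).

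In the 201 bases around the summits of the 10 shared sites with no annotated TSS of any gene within 1 kb, CCAAT was found at 5 (24.1% of 40875 such sites), TGANTCA, the AP-1 site, at 3 (40.7%) and GGGCGG at 1 (5.11%). The letters CNAGGNGGC of the CTCF core were found at 0 of the 10 (5.44%), as were the ETS, YY1, NRF1 and cyclic AMP motifs (1.11%, 0.58%, 0.0979% and 0.377%). The AP-1 and CTCF letters were added after the sites had been seen.

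The other 24 listed subunits of the 3 complexes also had TSS peaks in all 4 lists. Their median ranks were 91.5, 85.9, 85.8 and 88.2. The highest in WT was Actl6a (99.3), the actin-related BAF53A shared by all 3 complexes, and the lowest Ino80b (38.3). From WT to Anp32e-/-, 8 of 24 ranked higher (33.3%, beside 37.6% of all genes) and 2 were past 10 points, both downward (8.33%, beside 11.1%), shares below those of all genes. They were Ino80b, from 38.3 to 5.60, and Actb, the beta-actin gene, from 57.3 to 37.4. From NT siRNA to H2A.Z siRNA, 15 of 24 ranked higher (62.5%, beside 67%) and 3 were past 10 points, all upward (12.5%, beside 14.1%), again below the shares of all genes. They were Mcrs1 of INO80 (12.4 points), Yy1, the transcription factor bound to INO80 (11.1), and Trrap, the scaffold of the p400 complex (10.6). In centred log2 height Ino80b was at -0.43 and Actb at -0.17 in Anp32e-/-, and 0 of the 24 subunits passed 0.5 in that comparison. In H2A.Z siRNA against NT siRNA 1 of the 24 passed it, Actb, downward at -0.55, with a rank difference of -8.10 points.

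The protein-coding genes nearest to each motor in the 4 ranks, by Euclidean distance among 13967 genes with a TSS peak in every list, were Dpf3 (0.92 points), and Sept10 and Sowahc (1.15 each, with identical ranks) for Srcap. They were Fech (1.19), Kbtbd2 (1.20) and Ccser2 (1.22) for Ep400, and Epb41l4a (0.42), Ric1 (1.37) and Gm21992 (1.48) for Ino80. Likeness over 4 lists is a description of ranks only.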

How the data were processed

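ATAC-seq libraries of 9 mouse embryonic fibroblast samples fell into 4 groups by their labels. According to the methods, Bowtie2 alignment to mm10 was followed by Picard duplicate removal, and MACS2 then ran on paired-end fragments. The labels name 1 peak list for all libraries of a group, and how the libraries were combined for peak calling is not given in the sources used here. An over-tagmented library of the knockdown experiment had been excluded. In each deposited peak list, column 7 is the fold enrichment (a ratio) at the summit, and further columns hold the -log10 p and -log10 q that the authors' caller gave. Reads and depth per library were not analysed here.

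Pileup and local background were solved from each fold and -log10 p (99.995% or more of the pileups came out whole, within 0.05), and the solver was tested on simulated data. Without a control, the local background comes from the surrounding DNA, about 10 kb, so a strong or wide peak raises its own. Ranks are percentiles of the fold within a list. Peaks were matched to GENCODE M21 within 1 kb of a TSS, and overlapping or touching peaks of the 4 lists were merged into sites. Genes were named by rule: all members, listed subunits that differed by 10 points, lacked a TSS peak in a list or stood at the extremes of WT, the 3 nearest genes of each motor and genes whose TSS lies at a site in a window. The members were defined by name and not by their values, but they and the lists were chosen with earlier results of these data known. No test was made between single lists.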

Additional observations from a re-analysis of the deposited data

How the results depend on the processing

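No paired analysis was possible because 1 peak list stands for all numbered libraries of a group, and for the same reason no library was left out. The alternatives ranked by -log10 p, kept peaks with -log10 q of 5 or more, cut the lists to equal size or to the 20000 strongest peaks, used TSSs within 500 bp or of protein-coding transcripts only, kept 1 merged site per gene, scaled to equal depth, bridged short gaps between peaks, used 5 kb flanks, added every sequence, or compared centred log2 heights. Among the 20000 strongest peaks, fewer by construction, 6 of the 10 genes had a TSS peak in WT and 6 with NT siRNA, and 15 of the 24 other subunits with NT siRNA. The median rank there was 59.7 in WT, 53.3 in Anp32e-/-, 41.2 with NT siRNA and 70.5 with H2A.Z siRNA, and the windows held 14 sites, 6 of them called in every list. By -log10 p the median rank was 93.6 with NT siRNA and 96.7 with H2A.Z siRNA, and with lists of equal size it was 80.8 with H2A.Z siRNA.

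The median difference between Anp32e-/- and WT was -1.56 points by rank and 0.0385 by centred log2 height, so its sign depends on the measure. The median for H2A.Z siRNA against NT siRNA was 5.14 points by rank, 2.35 with lists of equal size and -1.48 among the 20000 strongest peaks. The cause was not tested for either. The Vps72 difference of 43.7 points was 10.7 with TSSs within 500 bp, protein-coding transcripts or 1 merged site. Of the 4 differences at single genes past 10 points, 0 changed sign under the alternatives that gave a value. The 20000 strongest peaks gave none for these 4, because the gene did not have a TSS peak in both cut lists. A sign change occurred for 5 smaller differences, of 2.79 points or less, at Srcap, Yeats4, Ruvbl2 and Brd8. At single genes 12 values left the counting interval of the rank difference or, by height, took the other sign, 6 of them among the 20000 strongest peaks, and the other 179 did not.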
